A study of Mus musculus with 12 samples.

Results

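The genes described here encode 10 subunits of the mouse BAF complex (also called SWI/SNF): the ATPases Smarca2 and Smarca4, the scaffold subunits Smarcc1, Smarcc2 and Smarcb1, the accessory subunits Smarcd1, Smarcd2 and Smarcd3, and the DNA-binding subunits Arid1a and Arid1b. Their chromatin accessibility was followed through ATAC-seq peaks, 502 bp wide, that overlapped the gene body or the 10 kb on either side of it (GENCODE M21 annotation, GRCm38). This rule, which used no measured value, gave 110 of 91,354 peaks in the set called from BGI reads (the BGI table) and 103 of 87,027 in the set called from Illumina reads (the Illumina table). Both tables hold counts of all samples, and each comparison of cell types used the samples of the same instrument as the peak set unless stated otherwise. By gene, the BGI table held 29 peaks for Arid1b, 16 for Arid1a, 13 for Smarcc2, 11 for Smarcd3, 9 for Smarcc1, 8 for Smarcb1, 7 for Smarcd1, 6 each for Smarca2 and Smarcd2, and 5 for Smarca4. All 110 passed the filter on low counts. Of these, 32 were promoter peaks, reaching to 1 kb or less from a start site annotated for the same gene, starts of short or retained-intron transcripts included, 42 were intronic, 9 exonic and 27 lay in the flanks, 7 upstream and 20 downstream. The promoter of another protein-coding gene lay within 1 kb of 18 of the 110.

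The cells were mouse embryonic fibroblasts (MEFs), sorted as Thy1+, and embryonic stem cells of the mouse (mESCs), taken from the gate Thy1-, Ssea1+ and Epcam+, both of a C57/Bl6 background and without any treatment named in the labels. The age of the embryos and the origin of the stem cell lines were not given in the sources used here. Omni-ATAC-seq, in which the transposase Tn5 inserts sequencing adapters into open DNA, was done on 3 biological replicates of each cell type, MEF libraries 1, 2 and 4 and mESC libraries 1, 3 and 5. Each of these 6 libraries was read on a DNBSEQ-G400 (BGI) and on a HiSeqX10 (Illumina), which gives 12 samples in 4 groups of 3.

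BAF complexes use the energy of ATP to slide or evict nucleosomes and so open enhancers and promoters. Each complex carries either Smarca2 (BRM) or Smarca4 (BRG1) as its motor, and paralogues also replace each other at the Smarcc, Smarcd and Arid1 positions, so that the make-up differs between cell types. The form of mouse embryonic stem cells, esBAF, is known for Smarca4, Smarcc1, Smarcd1 and Arid1a and for having little or no Smarca2 and Smarcc2, whereas fibroblasts carry both motors. These data hold accessibility only, neither RNA nor protein, and in bulk cells a site that is open in fewer cells cannot be told apart from a site that is less open in each.

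Reads in peaks numbered 20085886 to 21662775 per sample in MEFs and 15860985 to 16958488 in mESCs. Levels are given as CPM, counts scaled to a total of 1000000 reads in peaks, so that 1 CPM stands for about 16 to 22 reads. The labelled cell types were checked at promoters of marker genes. All 5 fibroblast markers (Thy1, Col1a1, Col1a2, Prrx1 and Twist2) were lower in mESCs, with a median log2 fold change of -2.61 on BGI, and all 5 stem cell markers (Pou5f1, Nanog, Esrrb, Epcam and Zfp42) were higher, with a median of 4.46. Of markers of other cells, Cdh5 (endothelium), Ptprc and Spi1 (blood) had no promoter peak and Tek (endothelium) did not pass (log2 fold change 0.36 ± 0.17 SE). Of the primitive endoderm genes, Sox17 was higher in mESCs (18.6 ± 0.65 against 3.14 ± 0.30 CPM, SD, n = 3) and Gata6 lower (23.6 ± 2.53 against 35.2 ± 4.0 CPM). In the summed windows of these genes (gene body and 10 kb on either side), Cdh5 fell by 1.03 ± 0.17 on BGI and 0.89 ± 0.18 on Illumina, Tek rose by 0.63 ± 0.10 and 1.19 ± 0.13, Ptprc, with a single peak on BGI and none on Illumina, fell by 2.38 ± 0.31, and Spi1 did not pass (-0.03 ± 0.08 and -0.12 ± 0.08). The windows of Sox17 (2.39 ± 0.11 on BGI) and Gata6 (-0.86 ± 0.09) moved as their promoters did. The part of such cells in the results below was not tested.

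Most peaks of the BAF subunit genes differed between the cell types, in about equal numbers in each direction. On BGI, 46 of 110 were higher and 44 lower in mESCs at an adjusted p under 0.05 (edgeR), and 20 did not pass. Of all peaks in the BGI set 84.1% passed, 40.9% higher and 43.2% lower in mESCs, so the 90 peaks called here (81.8%) were no larger a share than elsewhere in the genome. The 3 MEF and the 3 mESC libraries did not overlap at 87 of the 110 peaks, beside 85.1% of all peaks. On Illumina, 42 of 103 were higher and 40 lower, beside 42.1% and 42.4% of all peaks tested there, where 84.5% were called in all. A partner covering at least 50% of the width was found in the Illumina table for 96 of the 110 BGI peaks, and 75 of these were called on both instruments in the same direction, 38 higher and 37 lower, beside 81.5% of all BGI peaks with a partner. None was called in opposite directions, as was the case for all matched peaks (0%). When a log2 fold change of at least 1 was also asked for, 55 of the 110 were left on BGI (37 higher, 18 lower), beside 33% of all peaks higher and 30.1% lower at that size, and 51 of the 103 on Illumina (35 higher, 16 lower), beside 33.6% and 28.2%.

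The direction differed by the place of the peak. Of the 32 promoter peaks, 5 were higher and 19 lower in mESCs, with a median log2 fold change of -0.40, whereas of the 78 other peaks 41 were higher and 25 lower, with a median of 0.62. The 78 include peaks at promoters of other genes, such as Derl3. For all peaks, here and below, promoter peaks were those within 1 kb of an annotated start of any gene. So defined, 72.3% of promoter peaks in the BGI table were called, 31.3% higher and 41.0% lower with a median of -0.13. Of the other peaks there 89.8% were called, 45.6% higher and 44.3% lower with a median of 0.04. When samples were scaled by the depth of the down-sampling in place of TMM, which moved the median of all peaks by 0.14 on BGI and 0.13 on Illumina, 6 promoter peaks were higher and 15 lower. The largest difference in each direction lay away from promoters: the values of all 110 peaks run from -5.77 to 4.86 on the log2 scale, both ends being introns of Arid1b. Promoter peaks run from -2.81 to 4.51. The deposited lists of reproducible peaks, called per cell type from the same reads, can be set beside these values. On BGI, 23 of the 110 peaks overlapped a peak of the MEF list alone, 42 of the mESC list alone and 45 of both. Of all peaks in this set, which was built from these lists, 32.8%, 36.4% and 30.8% did so.

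**Figure D1:**
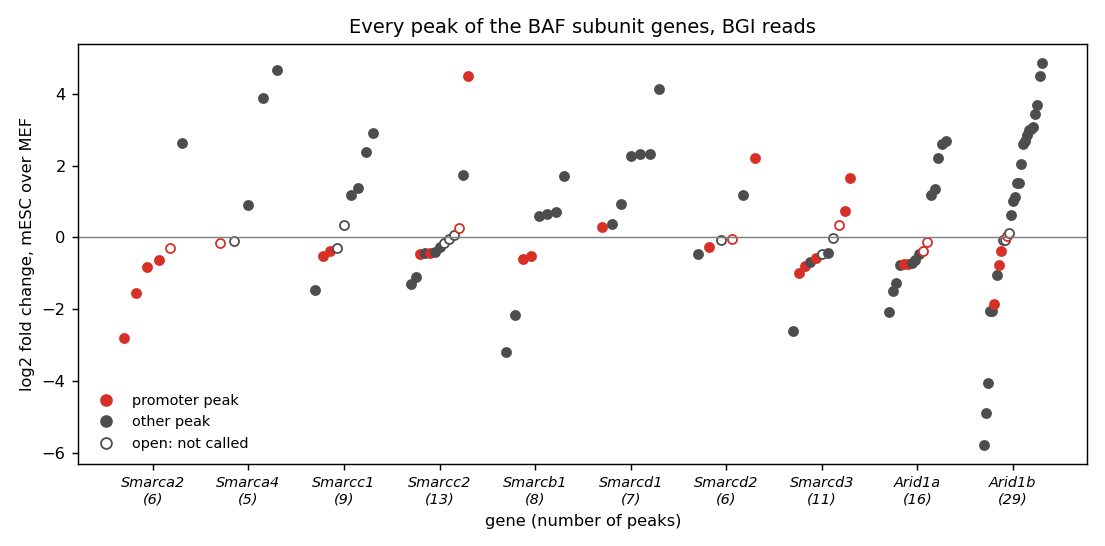
Log2 fold change (mESC over MEF, BGI reads) of all 110 peaks, by gene, with the number of peaks under each name; red points are promoter peaks, grey points other peaks, and open points did not pass an adjusted p of 0.05. Promoter peaks lie mostly between 0 and -1, and the extremes, -5.77 and 4.86, are intronic peaks of Arid1b.

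When the reads of all peaks in a gene's window were summed, 6 of the 10 genes differed between the cell types, the same 6 on both instruments. Smarca2, Smarcd3 and Arid1a were lower in mESCs and Smarca4, Smarcd1 and Arid1b higher. For comparison, 77.2% of the 17,704 protein-coding windows tested on BGI were called, 38.3% higher and 38.9% lower, and 77.4% on Illumina, 38.8% higher and 38.6% lower. Smarca2 changed most, from 132, 138 and 152 CPM in MEFs to 60.3, 67.3 and 60.6 CPM in mESCs (log2 fold change -1.21 ± 0.06 SE on BGI, adjusted p = 6.3e-13, and -1.21 ± 0.06 on Illumina). Smarcd1 changed most in the other direction, from 51.8, 51.3 and 58.4 CPM to 119.0, 119.4 and 131.8 CPM (1.15 ± 0.07 on BGI, adjusted p = 3.1e-12, and 0.95 ± 0.06 on Illumina). The Smarca4 window rose by 0.56 ± 0.07 on BGI and 0.34 ± 0.07 on Illumina, and the Arid1b window by 0.14 ± 0.05 and 0.19 ± 0.05. Smarcd3 fell by 0.48 ± 0.06 and 0.52 ± 0.06, and Arid1a by 0.36 ± 0.05 and 0.34 ± 0.05. Smarcb1, Smarcc1, Smarcc2 and Smarcd2 stayed between -0.11 and 0.04 on both instruments, with errors of 0.05 to 0.06, and did not pass.

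**Figure D2:**
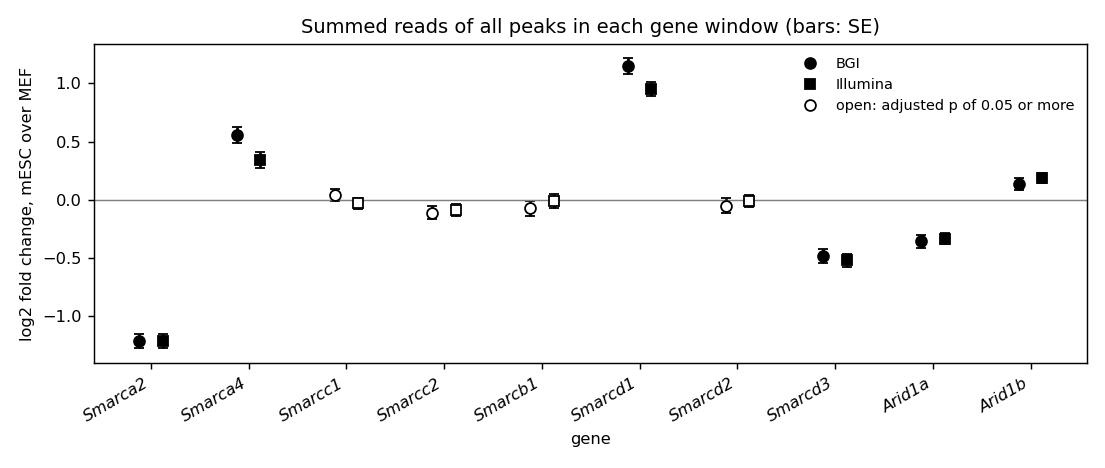
Log2 fold change (mESC over MEF) of the summed reads in each gene's window, with bars of 1 SE; circles are BGI, squares Illumina and open symbols did not pass an adjusted p of 0.05. Smarca2 lies at -1.21 on both instruments and Smarcd1 at 1.15 and 0.95, with Smarcb1, Smarcc1, Smarcc2 and Smarcd2 near 0.

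A sum over a window can hide opposite changes, and for several genes it depended on the window. Over the gene body alone, Smarca4 did not pass (0.03 ± 0.08 on BGI), its strongest rises lying upstream of the gene, and Smarcb1 fell by 0.91 ± 0.08 on BGI and 0.93 ± 0.08 on Illumina. Smarcc2 rose by 0.46 ± 0.08 on BGI and by less, 0.18 ± 0.07, on Illumina, where Smarcd2 was also called (0.18 ± 0.06, against 0.14 ± 0.07 and no call on BGI). Without peaks at promoters of other genes, Smarcb1 fell by 1.15 ± 0.08 on BGI and 1.22 ± 0.08 on Illumina, a setting that drops the strong peak at the Derl3 promoter behind its 3′ end, which was higher in mESCs. That setting also drops the promoter peak that Smarcc1 shares with the gene Dhx30. Smarcc1 was then called lower on BGI (-0.18 ± 0.07) and on Illumina (-0.24 ± 0.06). On BGI Arid1b did not pass (0.06 ± 0.05), although none of the Arid1b peaks was dropped, the scaling and the spread being refitted on the changed table. With libraries scaled by the depth of the down-sampling, the Smarcc1 window was called in the other direction on BGI (0.16 ± 0.08). Smarca2, Smarcd1, Smarcd3 and Arid1a kept their direction and their call in all 11 settings tried on each instrument, the leave-one-out fits included. The rise of Smarcd1 was smaller without peaks at promoters of other genes (0.79 ± 0.08 on BGI and 0.58 ± 0.07 on Illumina).

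At the strongest promoter peak of each gene the changes were modest, except at Smarca2. For each gene the promoter peak with the highest mean CPM over the BGI samples was taken. On BGI, 7 of these 10 were lower in mESCs (Smarca2, Smarcb1, Smarcc1, Smarcc2, Smarcd2, Smarcd3 and Arid1b), 1 was higher (Smarcd1) and 2 did not pass (Smarca4 and Arid1a). Among all promoter peaks on BGI, of which 72.3% were called, 31.3% were higher and 41.0% lower. The median log2 fold change was -0.38, beside -0.13 for all promoter peaks. The values for all promoter peaks cover every such peak and not only the strongest of each gene. Scaled by the depth of the down-sampling, 4 were lower and 1 higher: Smarcc2, Smarcd2 and Arid1b no longer passed. On Illumina 6 were lower, and Smarcd1 (0.08 ± 0.09) and Smarcd2 (-0.16 ± 0.07) did not pass, beside 74.0% of all promoter peaks called and 42.4% lower there. The 3 fibroblast and the 3 stem cell libraries were apart for all of the 7 lower peaks and overlapped for the other 3, beside 74.1% of all promoter peaks without overlap on BGI.

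**Figure D3:**
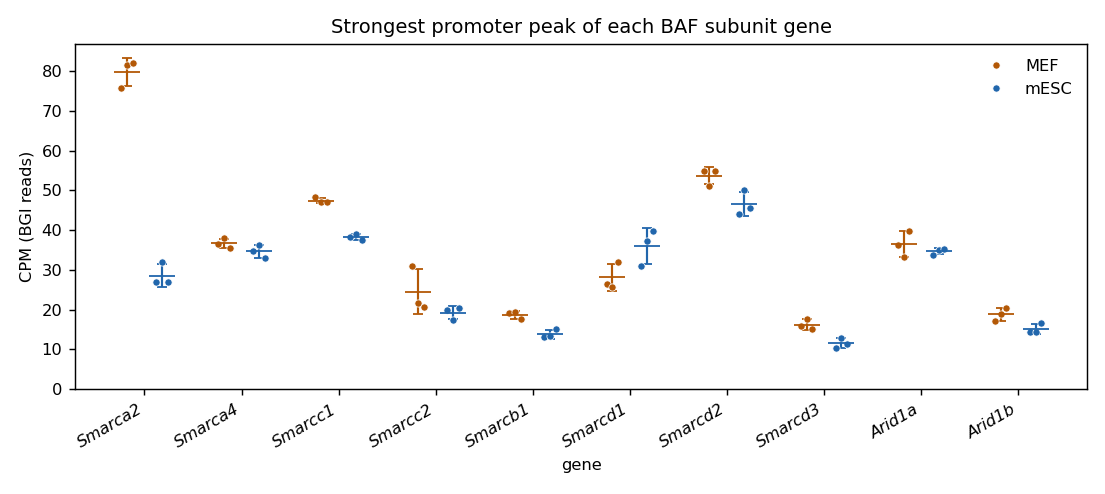
CPM of the strongest promoter peak of each gene in the 3 MEF (orange) and 3 mESC (blue) libraries read on BGI, with the mean and SD. Smarca2 stands out with 79.8 CPM in MEFs against 28.5 in mESCs, while the other 9 genes differ by at most 0.56 on the log2 scale.

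Of the ATPases, Smarca2 was less accessible in mESCs at its 5′ promoter and at internal start sites far into the gene. Its 5′ promoter peak (chr19:26604716-26605217) held 75.8, 81.6 and 82.0 CPM in MEFs 1, 2 and 4 and 26.9, 31.9 and 26.8 CPM in mESCs 1, 3 and 5. The groups were far apart, by a log2 fold change of -1.55 ± 0.10 (adjusted p = 9.4e-11), and on Illumina by -1.60 ± 0.10. A further peak lay 142.9 kb into the gene (chr19:26747695-26748196), where 19 annotated transcripts that cover only the 3′ part of Smarca2 start within 1 kb. It held 25.7, 25.0 and 27.6 CPM in MEFs and 3.78, 4.49 and 3.35 CPM in mESCs, a fall of 2.81 ± 0.15 on the log2 scale (adjusted p = 1.7e-11), larger than at the 5′ promoter. Of 3 weaker peaks 0.88 to 2.71 kb inside the gene, the first did not pass (-0.29 ± 0.18) and the others fell by 0.64 and 0.81. Against this, an intronic peak 3.55 kb into the gene rose from 1.11, 0.795 and 1.05 CPM to 6.30, 5.85 and 7.02 CPM (2.62 ± 0.28), a low level in both cell types.

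Smarca4, the motor of esBAF, did not pass the test at its promoter. Its single promoter peak (chr9:21615808-21616309) held 36.5, 37.9 and 35.6 CPM in MEFs and 34.8, 36.3 and 33.0 CPM in mESCs. These values overlapped (log2 fold change -0.15 ± 0.09, adjusted p = 0.15), and on Illumina the difference was -0.05 ± 0.08. Upstream the cell types parted. A peak 10.06 kb before the gene (chr9:21605854-21606355) held 0.600, 0.696 and 0.548 CPM in MEFs, or 11 to 14 reads, and 17.7, 14.3 and 17.4 CPM in mESCs. It was among the 5 highest members (4.66 ± 0.23, adjusted p = 5.7e-12, and 5.06 ± 0.26 on Illumina), and 3.3% of all peaks had a higher value. A summit was called there in 3 of 3 mESC libraries and 0 of 3 MEF libraries on each instrument. The peak sets were built from such calls in the same libraries, so these add no separate support. A second upstream peak, 7.96 kb before the gene, rose from 0.488 to 7.56 CPM (3.88 ± 0.30) in the BGI table and had no partner in the Illumina table. Within introns, a peak at 10.58 kb rose by 0.91 ± 0.29 and one at 14.68 kb did not pass (-0.09 ± 0.25).

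The promoter sequences of the motors are shown from 250 bases before to 50 after the RefSeq start of each gene (GRCm38.p6, plus strand for both, CG dinucleotides in capitals), since the peak over the first fell and the peak over the second did not pass. The RefSeq start of Smarca4 is also the GENCODE start from which distances are given here, whereas that of Smarca2 lies just inside the gene as GENCODE has it. The Smarca2 stretch (chr19:26604910-26605209) holds 29 CG dinucleotides and the Smarca4 stretch (chr9:21615919-21616218) 33, beside a median of 7 over 32,851 promoters of the same length, and both stretches lie wholly inside their peaks.
Smarca2: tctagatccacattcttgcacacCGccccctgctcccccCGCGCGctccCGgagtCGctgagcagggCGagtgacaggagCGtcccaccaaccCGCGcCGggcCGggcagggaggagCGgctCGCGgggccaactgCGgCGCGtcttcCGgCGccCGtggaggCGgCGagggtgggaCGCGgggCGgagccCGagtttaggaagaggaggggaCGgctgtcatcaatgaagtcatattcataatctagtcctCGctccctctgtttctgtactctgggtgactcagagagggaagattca
Smarca4: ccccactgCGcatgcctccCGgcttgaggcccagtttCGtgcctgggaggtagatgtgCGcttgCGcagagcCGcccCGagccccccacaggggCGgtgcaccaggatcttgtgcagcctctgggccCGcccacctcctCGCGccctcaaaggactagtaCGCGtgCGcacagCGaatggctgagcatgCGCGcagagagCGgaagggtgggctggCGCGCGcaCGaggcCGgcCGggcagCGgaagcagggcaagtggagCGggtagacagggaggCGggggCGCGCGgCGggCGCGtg

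The central 300 bases of the Smarca4 peak at -10.06 kb (chr9:21605954-21606253, plus strand) are printed next, with matches to AP-1 (TGANTCA) and to the octamer bound by POU factors (ATGCAAAT) in capitals. The octamer occurred in the central 300 bases of 2.29% of all BGI peaks and in 3 of the 110 peaks of the BAF subunit genes.
Smarca4 upstream peak: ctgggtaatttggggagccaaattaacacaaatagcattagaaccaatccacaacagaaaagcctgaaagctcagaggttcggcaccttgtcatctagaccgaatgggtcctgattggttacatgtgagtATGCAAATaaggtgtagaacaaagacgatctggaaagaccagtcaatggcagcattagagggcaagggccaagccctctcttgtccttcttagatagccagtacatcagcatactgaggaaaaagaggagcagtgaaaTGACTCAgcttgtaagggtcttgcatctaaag

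Of the scaffold paralogues, Smarcc1 and Smarcc2, neither passed in its summed window, and both promoters were slightly lower in mESCs. The Smarcc1 promoter peak (chr9:110117220-110117721), which it shares with Dhx30, held 48.3, 47.1 and 47.0 CPM in MEFs and 38.3, 39.0 and 37.5 CPM in mESCs (-0.38 ± 0.09, adjusted p = 6.0e-04). A second start site of Smarcc1, 14.21 kb into the gene, showed a like fall from 43.3 ± 0.69 to 31.4 ± 1.19 CPM (SD, n = 3, log2 fold change -0.53 ± 0.09). Inside the gene, a peak over an exon at 88.53 kb rose from 1.38, 2.19 and 1.64 CPM to 11.0, 14.4 and 15.5 CPM (2.90 ± 0.22), and an intronic peak at 113.14 kb rose by 2.39 ± 0.27. An intronic peak at 44.86 kb fell by 1.45 ± 0.30. Both rises and the fall were called on Illumina too (2.57, 2.14 and -1.26).

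Smarcc2 had its strongest promoter peak 0.77 kb before the gene (chr10:128458230-128458731), with 31.1, 21.8 and 20.7 CPM in MEFs and 19.8, 17.3 and 20.4 CPM in mESCs. MEF 1 stood above the rest and carried the difference: the log2 fold change was -0.43 ± 0.15 with it (adjusted p = 0.013) and -0.16 without it, when the call was lost, and on Illumina it went from -0.37 to -0.20 in the same way. The call on BGI was also lost without mESC 3 (-0.33). The peak over the start itself fell by 0.47 ± 0.14. The widest change in Smarcc2 was a rise 15.28 kb inside the gene (chr10:128474276-128474777), from 1.06, 0.696 and 0.946 CPM to 20.6, 21.3 and 23.3 CPM (4.51 ± 0.20, adjusted p = 1.9e-12, and 3.78 ± 0.20 on Illumina). The rule classed it as a promoter peak because of the start of Smarcc2-204, a retained-intron transcript. Near the 3′ end, an exonic peak at 30.34 kb rose by 1.73 ± 0.19 and its neighbour at 31.20 kb fell by 1.10 ± 0.15. Behind the gene lay 6 peaks, 5 of them at the promoters of Myl6 and Myl6b, of which 4 fell by 0.27 to 1.31 and none rose.

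Smarcb1, a core subunit with no paralogue, had a promoter peak (chr10:75921409-75921910) with 19.0, 19.5 and 17.5 CPM in MEFs and 13.0, 13.3 and 15.1 CPM in mESCs (-0.51 ± 0.13, adjusted p = 0.0012). The next peak, 0.47 kb inside the gene, fell by 0.60 ± 0.15. Much stronger falls were found at an intronic peak at 22.56 kb (chr10:75898806-75899307) and at a peak 8.86 kb upstream. The intronic peak held 31.9, 30.7 and 22.3 CPM in MEFs and 3.66, 3.61 and 2.42 CPM in mESCs (-3.20 ± 0.19, adjusted p = 6.4e-11, and -2.83 ± 0.17 on Illumina), and the upstream peak fell from 24.3 ± 5.40 to 5.64 ± 0.31 CPM (-2.17 ± 0.17). The 4 peaks over a 3′ exon and behind the gene all rose, by 0.60 to 1.73. The strongest of these, at the Derl3 promoter, went from 67.7 ± 3.55 to 107.7 ± 9.25 CPM. The central 300 bases of the intronic peak (chr10:75898906-75899205, plus strand) carry the AP-1 letters, here in capitals.
Smarcb1 intronic peak: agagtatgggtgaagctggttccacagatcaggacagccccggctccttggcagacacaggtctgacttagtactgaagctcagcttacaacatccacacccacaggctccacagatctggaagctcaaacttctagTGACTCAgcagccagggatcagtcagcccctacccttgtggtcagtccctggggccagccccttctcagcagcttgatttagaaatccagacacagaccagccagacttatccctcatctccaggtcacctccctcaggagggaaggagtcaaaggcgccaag

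The Smarcd genes, whose products link BAF to transcription factors, took different courses. Smarcd1, the form found in esBAF, was more accessible at every peak: all 7 were called higher in mESCs on BGI and 6 of 7 on Illumina, with a median log2 fold change of 2.27, beside 40.9% and 42.1% of all peaks called higher. The promoter peak itself (chr15:99701926-99702427) moved least. It held 26.5, 25.8 and 32.1 CPM in MEFs and 31.0, 37.2 and 39.8 CPM in mESCs, which overlap (0.29 ± 0.11, adjusted p = 0.023). The call was lost on Illumina and, on BGI, without MEF 2 (0.24) or without mESC 5 (0.23). The rise lay around it. An intronic peak at 3.03 kb (chr15:99704905-99705406), within 1 kb of a start of the overlapping gene Gm17349, went from 1.29, 1.39 and 0.996 CPM to 25.6, 20.3 and 23.2 CPM (4.15 ± 0.19, adjusted p = 3.1e-12, and 3.84 ± 0.19 on Illumina). Peaks 4.60 and 3.31 kb upstream rose from 2.72 to 14.4 CPM and from 2.09 to 10.6 CPM, and an exonic peak at 11.06 kb from 1.84 to 9.63 CPM. The central 300 bases of the intronic peak (chr15:99705005-99705304, plus strand) hold matches to AP-1 and to the SOX letters CATTGT, in capitals.
Smarcd1 intronic peak: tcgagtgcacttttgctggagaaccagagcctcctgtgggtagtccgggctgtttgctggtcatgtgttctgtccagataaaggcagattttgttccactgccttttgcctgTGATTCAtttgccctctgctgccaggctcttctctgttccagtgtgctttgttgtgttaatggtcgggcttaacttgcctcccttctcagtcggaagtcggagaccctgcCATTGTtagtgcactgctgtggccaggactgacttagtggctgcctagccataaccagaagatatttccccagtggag

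**Figure D4:**
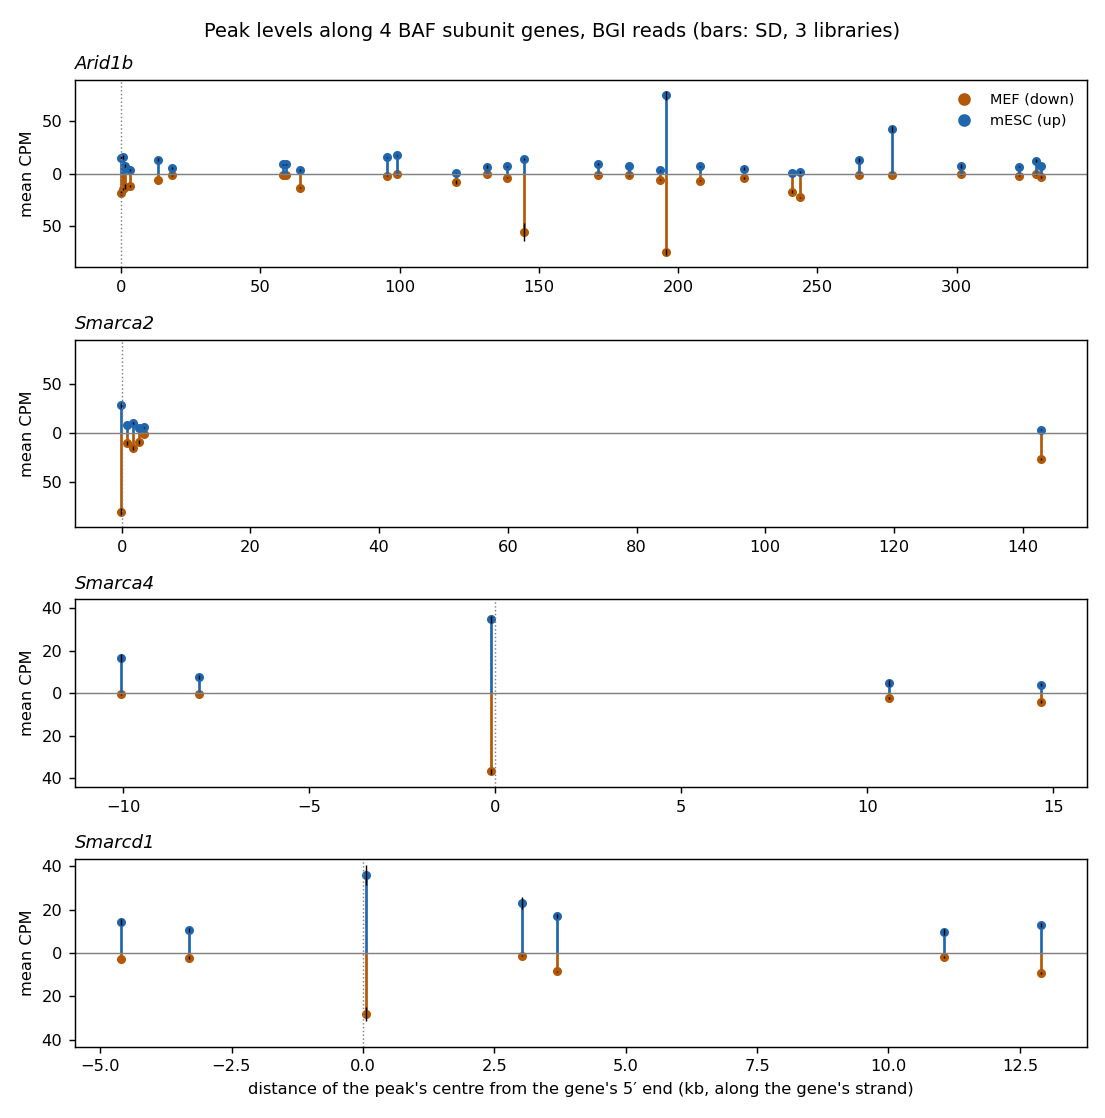
Mean CPM (3 libraries, BGI reads, bars of 1 SD) of each peak of Arid1b, Smarca2, Smarca4 and Smarcd1 against the distance of its centre from the gene's 5′ end in kb; mESC values point up and MEF values down. Smarca2 is stronger in MEFs at the 5′ promoter and at 142.9 kb, Smarca4 and Smarcd1 have stronger peaks around an open promoter in mESCs, and the Arid1b peak at 195.66 kb has a mean of 75.1 CPM in both.

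Smarcd2 had the strongest promoter of the 3, with 54.9, 51.2 and 55.0 CPM in MEFs and 44.1, 50.03 and 45.5 CPM in mESCs (chr11:106272769-106273270). The fall was small (-0.27 ± 0.09, adjusted p = 0.0091) and was not called on Illumina, nor on BGI without MEF 1 (-0.20). An intronic peak at 3.78 kb rose from 5.22, 5.77 and 8.31 CPM to 14.5, 13.2 and 18.02 CPM (1.18 ± 0.18). A weak peak at 6.16 kb, near starts of short annotated transcripts, rose by 2.22 ± 0.40.

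Smarcd3, known from heart and neuron forms of BAF, fell in its summed window. Its strongest promoter peak lay 21.26 kb into the annotated gene (chr5:24602896-24603397), by the starts of 4 annotated transcripts, and held 15.9, 17.6 and 15.1 CPM in MEFs and 10.4, 12.9 and 11.2 CPM in mESCs (-0.56 ± 0.14, adjusted p = 0.0014). The peak over those starts, at 22.34 kb, fell by 0.99 ± 0.14. A GC-rich intronic peak 2983 bp from the nearest start (chr5:24604745-24605246) fell most, from 35.4, 30.7 and 37.0 CPM to 6.81, 5.32 and 5.72 CPM (-2.60 ± 0.13, adjusted p = 1.1e-11, and -2.31 ± 0.11 on Illumina). The distant 5′-most start was weakly open in both cell types, with 5.11 ± 1.01 CPM in MEFs and 6.80 ± 0.88 in mESCs, and did not pass (0.35 ± 0.21). Further 3′, by starts of other short transcripts, peaks at 25.51 and 28.23 kb rose by 0.74 ± 0.14 and 1.65 ± 0.21 and the peak between them fell by 0.78 ± 0.16.

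Arid1a, the ARID subunit known from esBAF, did not pass the test at its main start site. That peak (chr4:133756560-133757061) held 36.4, 33.3 and 39.8 CPM in MEFs and 33.8, 35.0 and 35.3 CPM in mESCs (-0.14 ± 0.09, adjusted p = 0.18). The peaks beside it fell: one 0.76 kb upstream went from 42.7 ± 2.82 to 26.9 ± 1.24 CPM (-0.74 ± 0.09), and one at 2.39 kb, by a further start, from 43.3 ± 3.39 to 27.3 ± 0.61 CPM (-0.73 ± 0.09). Away from the promoters of Arid1a itself, all 12 peaks passed, 7 that fell and 5 that rose. Of all peaks away from the promoters of any gene 89.8% were called, 44.3% lower and 45.6% higher. The largest change called on both instruments was a rise at 71.81 kb, over an exon, from 0.877, 0.596 and 0.896 CPM to 4.92, 4.85 and 6.52 CPM (2.70 ± 0.32). The strongest of the rises lay behind the gene at 80.98 kb and went from 4.48, 4.13 and 5.18 CPM to 31.5, 30.3 and 26.6 CPM (2.61 ± 0.14).

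Arid1b, the paralogue of Arid1a and the longest gene of the set, held both the highest and the lowest log2 fold change on BGI. Its promoter peak (chr17:4994086-4994587) fell slightly, from 17.2, 18.9 and 20.5 CPM to 14.4, 14.4 and 16.6 CPM (-0.38 ± 0.12, adjusted p = 0.0087). Of its 25 other peaks, all intronic, 16 rose and 6 fell on BGI, beside 45.6% and 44.3% of all peaks away from promoters. A peak at 240.84 kb was open in MEFs and nearly closed in mESCs. This peak (chr17:5234926-5235427) held 16.8, 19.0 and 16.4 CPM in MEFs and 0.252, 0.355 and 0.373 CPM in mESCs, or 4 to 6 reads. It had the lowest log2 fold change of all 110 peaks (-5.77 ± 0.25, adjusted p = 1.5e-12, and -5.67 ± 0.29 on Illumina), and 0.702% of all peaks lay below it. A weaker peak at 120.16 kb fell from 7.69 ± 1.94 to 0.261 ± 0.24 CPM (-4.89 ± 0.42) and had no partner in the Illumina table. At 240.84 kb no summit was called in any mESC library on either instrument, while all 3 MEF libraries had one, calls of the kind from which the peak sets were built.

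The opposite pattern was strongest 276.70 kb into Arid1b (chr17:5270781-5271282), with 1.43, 1.34 and 1.44 CPM in MEFs and 39.6, 44.9 and 44.7 CPM in mESCs. This was the highest log2 fold change of the 110 peaks (4.86 ± 0.15, adjusted p = 6.2e-14, and 4.81 ± 0.15 on Illumina), and 2.48% of all peaks lay above it. A peak at 99.20 kb (chr17:5093281-5093782) rose from 1.06, 0.497 and 0.597 CPM to 17.5, 17.9 and 17.0 CPM (4.51 ± 0.24), and 5 more, at 131.26, 171.20, 264.85, 301.50 and 328.40 kb, rose by 3.0 to 3.70. An intronic peak at 144.56 kb was the strongest that fell, from 58.4, 63.6 and 46.4 CPM to 15.1, 13.1 and 14.7 CPM (-2.04 ± 0.12). Between them, the strongest peak of the gene, at 195.66 kb, had overlapping levels, with 73.3, 73.5 and 78.4 CPM in MEFs and 75.6, 79.2 and 70.6 CPM in mESCs (-0.06 ± 0.08).

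The central 300 bases of these Arid1b peaks (GRCm38, plus strand) are shown because the highest and the lowest values fell on stretches that both hold the AP-1 letters and a further rise on a repeat. Capitals mark AP-1 letters in the stretch at 276.70 kb (chr17:5270881-5271180), and AP-1 letters and SOX letters on the minus strand in that at 240.84 kb (chr17:5235026-5235325). In the last, at 99.20 kb (chr17:5093381-5093680), they mark a run of 20 bases that recurs exactly 6 times. No other stretch of 300 bases printed here from a peak held a run of 20 bases more than once.
Arid1b 276.70 kb: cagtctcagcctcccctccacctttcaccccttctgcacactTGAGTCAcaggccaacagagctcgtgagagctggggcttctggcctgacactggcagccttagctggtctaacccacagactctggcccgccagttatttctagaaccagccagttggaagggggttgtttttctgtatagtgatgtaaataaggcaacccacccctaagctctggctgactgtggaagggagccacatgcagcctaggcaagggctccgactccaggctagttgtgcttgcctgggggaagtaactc
Arid1b 240.84 kb: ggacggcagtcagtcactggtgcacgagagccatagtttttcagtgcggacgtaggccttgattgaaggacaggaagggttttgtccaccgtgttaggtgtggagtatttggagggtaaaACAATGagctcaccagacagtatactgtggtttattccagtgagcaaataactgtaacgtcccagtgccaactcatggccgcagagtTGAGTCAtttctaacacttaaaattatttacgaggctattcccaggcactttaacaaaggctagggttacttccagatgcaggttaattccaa
Arid1b 99.20 kb: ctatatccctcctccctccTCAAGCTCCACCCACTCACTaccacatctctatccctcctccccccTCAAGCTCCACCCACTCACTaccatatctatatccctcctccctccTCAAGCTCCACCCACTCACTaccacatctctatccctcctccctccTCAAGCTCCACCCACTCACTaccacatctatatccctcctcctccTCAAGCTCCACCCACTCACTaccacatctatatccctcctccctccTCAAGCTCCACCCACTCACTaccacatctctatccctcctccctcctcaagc

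Over all 110 peaks, 5 motifs were counted on both strands of the central 300 bases, and no motif's letters contain another's. AP-1 (TGANTCA), the letters of FOS and JUN factors, occurred in 16 peaks (14.5%), beside 21.4% of all BGI peaks. It was in 8 of the 46 that rose and 8 of the 44 that fell. Among all peaks it was found in 14.5% of those higher and 31.8% of those lower in mESCs. TEAD letters (GGAATG) were in 21 of the 110 (19.1%, beside 23.5% of all), 7 of the risen and 10 of the fallen, beside 20.4% of all peaks higher and 29.4% of all lower in mESCs. SOX letters (CATTGT) were in 14 (12.7%, beside 13.0%), 10 of the risen and 4 of the fallen, beside 15.1% of all higher and 12.5% of all lower. The octamer was in 3 and the ESRRB letters (TCAAGGTCA) in 1 (beside 0.881%), a peak that fell. These are counts of letters and not of bound sites.

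The promoters of 21 other subunits of BAF, PBAF and ncBAF were taken by the same choice of peak. On BGI 11 of 21 fell, 1 rose and 9 did not pass, beside 41.0% of all promoter peaks lower and 31.3% higher. The median log2 fold change was -0.28, beside -0.13 for all promoter peaks, again not limited to the strongest of each gene. At these promoters, 14 further BAF genes gave 1 rise and 8 falls, 4 PBAF genes 1 fall and 3 ncBAF genes 2 falls. On Illumina, where 20 had a partner, 10 fell and 1 rose, with 2 falls in PBAF and 1 in ncBAF. The rise was that of Actl6b, an actin-related subunit of neuronal BAF, from 9.18 to 27.5 CPM (1.52 ± 0.14, and 1.54 on Illumina). Next in order were Dpf1, a PHD finger subunit of neuronal BAF (0.13 ± 0.10), and Brd9, the bromodomain subunit of ncBAF, which shares its promoter with Trip13 (0.11 ± 0.11), neither of which passed. The lowest on BGI were Pbrm1, which defines PBAF and shares its promoter with Gnl3 (-0.99 ± 0.13), the zinc finger subunit Bcl11b (-0.92 ± 0.12) and the small subunit Bcl7c (-0.81 ± 0.09). On Illumina their values were -0.63, -1.01 and -0.70. There Bcl11b was the lowest, and Bcl7c and Dpf3 (-0.65) also lay below Pbrm1. In summed windows 5 of the 21 rose and 8 fell on BGI, and 6 rose and 11 fell on Illumina, beside the shares of all windows given above. Of the 3 ncBAF windows none fell and 2 rose on each instrument. Among them was Bicral (1.23 ± 0.06 on BGI and 1.27 ± 0.05 on Illumina), whose promoter peak fell (-0.61 ± 0.12 on BGI).

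The same libraries could also be compared between instruments, on peak sets built from both. These held 71 peaks of the 10 genes in MEFs and 100 in mESCs. Without regard to the shared libraries, 12 of 71 were lower on BGI and none higher in MEFs, beside 4.06% of all peaks called, and 9 of 100 were lower and none higher in mESCs, beside 3.23%. With the library as a block, 22 were lower and 10 higher in MEFs (29.2% of all peaks called) and 22 lower and 4 higher in mESCs (21.3%). The unblocked count rested on few libraries: with edgeR it was 0 of 71 without MEF 1 (17 at an unadjusted p under 0.05) or without MEF 2 (15), 18 without MEF 4 (beside 9.91% of all peaks), 0 of 100 without mESC 1 (19) or without mESC 5 (14), and 5 without mESC 3 (beside 2.05%). In the fits with 0 calls here, 0 or 1 of all peaks was called. DESeq2 on all libraries called 17 and 9, beside 12.8% and 4.84% of all peaks with an adjusted p. In the blocked fit 17 of 28 promoter peaks were lower on BGI and none higher in MEFs, beside 36% and 6.66% of all promoter peaks. In mESCs 17 of 28 were lower and 1 higher, beside 34.4% and 3.3%. Of peaks with a GC content of at least 60%, 21 of 30 were lower and 1 higher in MEFs, where 59.2% and 1.61% of all such peaks were, and 21 of 29 were lower and none higher in mESCs, beside 57.4% and 0.838%. Of peaks below 60%, 1 of 41 was lower and 9 higher in MEFs, beside 2.81% and 17.4% of all, and 1 of 71 lower and 4 higher in mESCs, beside 3.05% and 7.26%.

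**Figure D5:**
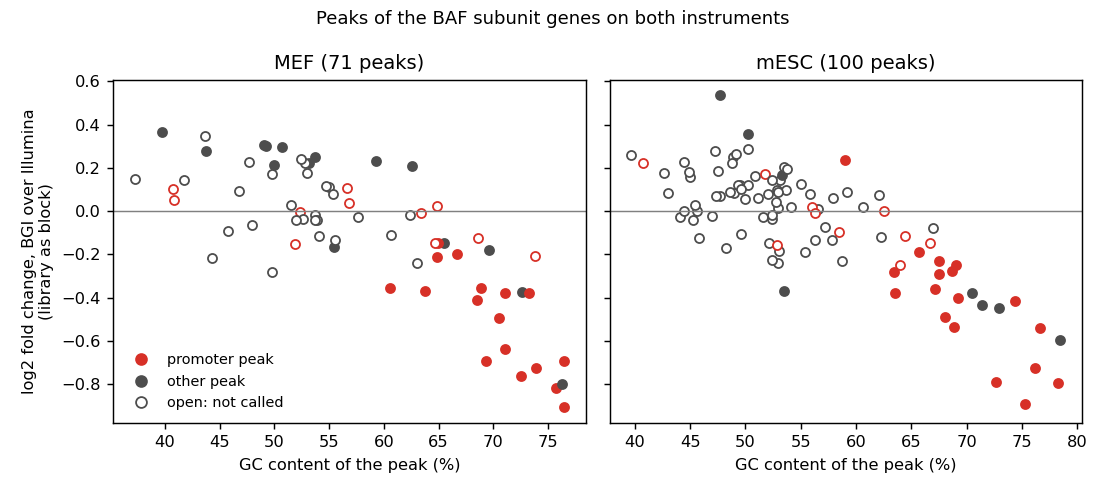
Log2 fold change (BGI over Illumina, library as a block) of the peaks of the BAF subunit genes against the GC content of the peak in percent, in MEFs and mESCs; red points are promoter peaks and open points did not pass an adjusted p of 0.05. The lowest values, -0.91 in MEFs and -0.89 in mESCs, belong to promoter peaks of over 75% GC, and below 60% the medians are 0.10 and 0.08.

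The lowest adjusted p belonged to the same site in both cell types, a promoter peak about 0.6 kb inside Arid1b with a GC content of 76.5% in the MEF peak and 78.3% in the mESC peak. In MEFs 1, 2 and 4 it held 15.9, 14.5 and 16.5 CPM on BGI and 28.8, 26.2 and 31.6 CPM on Illumina (-0.91 ± 0.11, adjusted p = 0.0057, and -0.91 ± 0.07 with the block). In mESCs 1, 3 and 5 it held 15.7, 17.4 and 14.2 CPM on BGI and 26.8, 27.8 and 24.4 CPM on Illumina (-0.79 ± 0.11, adjusted p = 0.0047). Every library was lower on BGI, and the same held at the next 2 peaks by p in each cell type, near Cspg5 behind Smarcc1 and at a start of Arid1a in MEFs, and at the starts of Smarcc2 and Arid1a in mESCs. The lowest p in the other direction belonged to the Derl3 promoter behind Smarcb1 in MEFs (0.20 ± 0.08) and to a peak at Myl6 behind Smarcc2 in mESCs (0.36 ± 0.11), which were called only with the block. Across the 71 and 100 peaks the blocked log2 fold change went with GC content at Spearman's rho -0.75 and -0.70 (Pearson's r -0.78 and -0.80), over peaks that share libraries and gene promoters. After a GC-dependent offset was added to the blocked fit, rho became -0.17 and -0.21 (among the 28 promoter peaks of each -0.21 in MEFs and -0.41 in mESCs), and 8 peaks were lower and 6 higher on BGI in MEFs and 5 and 5 in mESCs, beside 12.4% and 8.6% of all peaks called.

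The difference between the cell types was also compared between the instruments at each of the 110 peaks. It differed at 2 of them, a peak behind Smarcc1 and the Smarcd1 promoter (adjusted p under 0.05 for the interaction of cell type and platform, with the library as a block), beside 0.386% of all peaks, and 22 had an unadjusted p under 0.05, beside 13.2% of all. Over all peaks the interaction had a median of 0.11 and not 0, and 346 of the 353 calls were positive, the direction of both calls here. Without the block no member was called (edgeR, 5 at an unadjusted p under 0.05), and leaving out 1 library gave 3 calls without MEF 4 and 0 without any of the other libraries (14 to 20 at an unadjusted p under 0.05 in these fits).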

How the data were processed

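The authors trimmed the reads, aligned them to the mouse genome GRCm38 with Bowtie2, removed duplicates and mitochondrial reads, down-sampled the libraries to one depth per cell type and called peaks per sample with MACS2 (mm10 and MACS2 per the submitters' processing notes). The deposited count tables hold whole reads per peak and sample, not normalized, which the authors counted with subread. The summit files deposited per sample hold fold enrichment (a ratio to the genome-wide background, local lambda being switched off) and -log10 p and q values as MACS2 wrote them. The unsuffixed columns of the count tables were taken as Illumina, the others being marked BGI, and their ratio to the BGI counts followed that of the summit files over peaks in all 6 libraries (Spearman's rho 0.76 to 0.80).

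CPM was computed from each sample's total reads in peaks. edgeR 4.0.16 in R 4.3.3 (TMM scaling, filterByExpr, quasi-likelihood F test, two-sided, Benjamini-Hochberg adjustment over all features) was fitted to whole tables and tested on simulated data, and every adjusted p comes from it. DESeq2 1.42.0 was an alternative. The ± after a log2 fold change is 1 SE of the fit. Named peaks were, for each gene, the promoter peak with the highest mean CPM and the other peak with the largest change called on both instruments, besides the 5 highest and 5 lowest called on both, the 3 highest and lowest promoters of other subunits and the 3 peaks of lowest p in each direction between instruments. One of these peaks, in Arid1b, is not reported here. Further peaks were named after their values were seen. The members and lists were chosen with earlier results of these data known. Same-numbered samples are 1 library read on both instruments, and their deviations from the group means had correlations of 0.62 to 0.84 (MEFs) and 0.52 to 0.73 (mESCs), against -0.67 to 0.28 and -0.51 to -0.12 for other pairs. Sequences are from RefSeq, GRCm38.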

Additional observations from a re-analysis of the deposited data

Results flagged for a closer look

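The difference between the cell types itself differed between the instruments at 2 of the 110 peaks, by the interaction of cell type and platform with the library as a block (edgeR, adjusted p under 0.05). Both calls were lost without the block, where 0 peaks were called (edgeR, 5 at an unadjusted p under 0.05), and leaving out 1 library gave 3 calls without MEF 4 and 0 without any other library (14 to 20 at an unadjusted p under 0.05). Counted from the same BGI peaks, the peak behind Smarcc1 at the Cspg5 promoter (chr9:110245586-110246087) held 8.81 ± 1.36 CPM in MEFs and 21.0 ± 1.94 in mESCs on BGI, and 14.3 ± 1.01 and 26.4 ± 1.98 CPM on Illumina (SD, n = 3). Its log2 fold change was 1.19 on BGI and 0.83 on Illumina, and the interaction was 0.48 ± 0.11 (adjusted p = 0.030, edgeR). The Smarcd1 promoter peak (chr15:99701926-99702427, GC content 69.1%) held 28.1 ± 3.44 and 36.0 ± 4.49 CPM on BGI and 37.3 ± 0.60 and 41.5 ± 3.53 CPM on Illumina. Its log2 fold change was 0.29 on BGI and 0.10 on Illumina, and the interaction was 0.32 ± 0.08 (adjusted p = 0.038, edgeR). At both peaks the 2 cell types were higher on Illumina than on BGI. The interaction was not centred on 0, with a median of 0.11 over all peaks and 0.13 over the 110.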

How the results depend on the processing

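In the counts of peaks that differed between mESCs and MEFs, asking for a log2 fold change of at least 1 left 55 on BGI and 51 on Illumina, and widening the windows to 50 kb gave 157 of 196 and 147 of 187. Leaving out 1 library at a time gave 84 to 92 on BGI, 77 to 84 on Illumina, and 6 or 7 of the 10 gene windows on each. Smarcc2 was called lower in its window without MEF 2 on both instruments, and Smarcb1 without MEF 4 on BGI. Scaled by the depth of the down-sampling, the promoter peaks of Smarca4 on Illumina (0.0793) and Arid1a on BGI (0.0021) changed sign, neither being called in any setting. In the refits of 50 values at named peaks, 575 kept direction and call, 17 lost the call, all at promoters, 2 changed sign and 6 gained it, all at Smarcd2 on Illumina; the causes were not tested. With the library as a block, the peaks called between instruments numbered 32 in MEFs and 26 in mESCs. Without the block, leaving out 1 library gave 0 to 18 in MEFs and 0 to 5 in mESCs. DESeq2 gave no adjusted p for 7 of 71 and 36 of 100 peaks there. The interaction of cell type and platform was called at 0 peaks without the block (edgeR, 5 at an unadjusted p under 0.05) and at 0 to 3 without 1 library (14 to 20 at an unadjusted p under 0.05). On the Illumina peak set 2 were called. No paired analysis was possible because MEFs and mESCs share only the number 1 and are different cultures, for the comparison of cell types. There were 3 libraries a group and 16 to 22 reads behind 1 CPM, and the smallest change that can be detected at weak peaks was not measured.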
